A study of Danio rerio with 10 samples.

Results

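Here 6 contractile genes of smooth muscle or myofibroblasts were followed through all 10 RNA-seq libraries of injured ventricles and fins. The fish were il11ra mutants and wild-type siblings. The 6 genes are acta2, mylka, myh11a, tagln, cnn1b and pdlim4. They were found as the entries that carry these symbols in the expression tables of both tissues. All 6 were listed in both, among 20684 genes that the tables share, and all 6 passed the filter on low values, a mean of at least 10 normalized counts over the libraries of a tissue.

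The study asked how Il-11 signaling shapes the response to injury in adult zebrafish of strain Tüb/AB. The il11ra mutants carry an allele made with CRISPR-Cas9 in the gene of the Il-11 receptor subunit, and the controls were wild-type fish given the same injury. Ventricles were collected at 96 hours post cryoinjury (hpci), in 2 libraries per genotype, each pooled from 2 ventricles. Caudal fins were collected at 24 hours post amputation (hpa), in 3 libraries per genotype, each from the tissue of 1 fin next to the plane of amputation. No uninjured tissue was part of the series, so every level below is a level after injury.

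Smooth muscle contracts when myosin light chain kinase phosphorylates the regulatory light chain of myosin, whose heavy chain then pulls on filaments of smooth muscle actin. Myofibroblasts are fibroblast-like cells that build the same actin filaments into stress fibres and pull on the matrix around them, and smooth muscle actin is their usual marker. The walls of vessels make the same actin, so it marks more than 1 kind of cell in a whole ventricle or fin.

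Values are normalized counts, in which the reads on a gene were scaled by the size factor of their library and rounded. Fin libraries held an estimated 2964761 to 4699029 reads on genes, ventricle libraries 12862399 to 14292521, so 1 normalized count stands for roughly 1 read. In fins il11ra lay at 57 to 80 in wild type against 3 to 7 in mutants, and in ventricles at 107 to 189 and 23 to 38. The mutant ventricle library of replicate 1 stood apart from the other 3, with a summed level of 10 cardiomyocyte marker entries of 486874 against 814179 to 917553. The ventricle fold changes of the 6 genes, the contrast of pdlim4 with fins and the median of the contractile list are given without that library as well. The fin table had only 6 genes with a mean over 3000, against 520 in the ventricle table. The cause was not tested, and levels or ratios set across the tissues carry this difference between the tables. Its part in fin genotype differences of genes with high values, and in their contrast with ventricles, was not tested either.

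For acta2 and mylka the study used RT-qPCR primers, shown here because they are how it measured RNA of both genes outside these libraries. The study also stained tissue for the proteins, smooth muscle actin and myosin light chain kinase. The primers are written 5′ to 3′, with no part in capitals.
acta2 forward: gaagatcaagataatcgctccac
acta2 reverse: gcaatagcagaattacgggac
mylka forward: cctcaaatccagcagtttcct
mylka reverse: cttcctgaattggtttgcgg

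In amputated fins the actin, the kinase and the myosin heavy chain rose in mutants, pdlim4 fell, and tagln and cnn1b did not pass the test. Of the 6 genes, 3 were called higher and 1 lower at an adjusted p-value under 0.05 (limma after adding 1 and taking log2, with Benjamini-Hochberg adjustment over 16741 tested genes). Across all tested genes 19.6% were called higher, 17% lower and 36.6% in either direction. The same 4 genes were those whose genotypes did not overlap (52.8% of all tested genes) and those with an unadjusted p-value under 0.05 (47.9%). The median log2 fold change was 0.68 over the 6 genes and -0.01 over all tested genes. RNA from whole tissue cannot tell more cells of a type from more RNA per cell.

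The actin gene acta2 encodes smooth muscle actin and lies on GRCz11 chromosome 12, plus strand, between 17100021 and 17116481. Its normalized counts in wild-type fins were 54, 57 and 73, and in mutant fins 387, 207 and 214. Every mutant fin lay above every wild-type fin, and mutant replicate 1 was the highest. On the log2 scale the difference was 2.07 (SE 0.25, limma adjusted p = 0.00121), a fold of 4.19. Without mutant replicate 1 the difference was 1.78 (limma adjusted p = 0.00124). The other alpha-actins, of skeletal and heart muscle, are similar to acta2 in sequence, and how far single reads could match both was not tested. How reads with several matches were counted was not given in the sources used here. In fins those 4 listed paralogs reached at most 13 normalized counts in any library.

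The kinase gene mylka encodes myosin light chain kinase, on the minus strand of chromosome 9 from 4024250 to 4075620. Its fin values were 79, 91 and 98 in wild type against 289, 153 and 211 in mutants. The genotypes did not overlap, and mutant replicate 1, highest for acta2, was highest here too. The log2 fold change was 1.23 (SE 0.22, limma adjusted p = 0.00509).

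The smooth muscle myosin heavy chain gene myh11a lies on the minus strand of chromosome 6, from 8499865 to 8580858. Wild-type fins held 167, 215 and 149 normalized counts and mutant fins 374, 428 and 356. Again the genotypes did not overlap, but the highest library was mutant replicate 2. The log2 fold change was 1.13 (SE 0.15, limma adjusted p = 0.0015).

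The gene pdlim4 encodes a PDZ and LIM domain protein that binds alpha-actinin on actin stress fibres, and it lies on the minus strand of chromosome 21 from 43738398 to 43801511. It stood at 284, 341 and 313 in wild-type fins and at 157, 162 and 165 in mutant fins. The mutant values lay close together and all of them under the wild-type values. In log2 terms pdlim4 fell by 0.95 (SE 0.10, limma adjusted p = 0.000795).

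The other two genes overlapped between fin genotypes. The gene tagln encodes transgelin (SM22), an actin-binding protein used as a smooth muscle marker, on the minus strand of chromosome 15 from 543744 to 551181. Its values were 152, 188 and 197 in wild type against 231, 189 and 206 in mutants. The 95% confidence interval of the log2 difference ran from -0.09 to 0.54 (limma adjusted p = 0.222), which leaves out a doubling. The calponin gene cnn1b, whose product binds actin and slows myosin in smooth muscle, lies on the plus strand of chromosome 3 from 14463941 to 14486959. With 9, 20 and 17 normalized counts in wild type and 26, 17 and 11 in mutants it rested on few reads, and its interval of -0.80 to 1.22 holds changes in both directions (limma adjusted p = 0.729). A doubling of cnn1b was not excluded at this depth, and the sign of its difference turned when wild-type replicate 1 or mutant replicate 1 was left out.

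**Figure D1:**
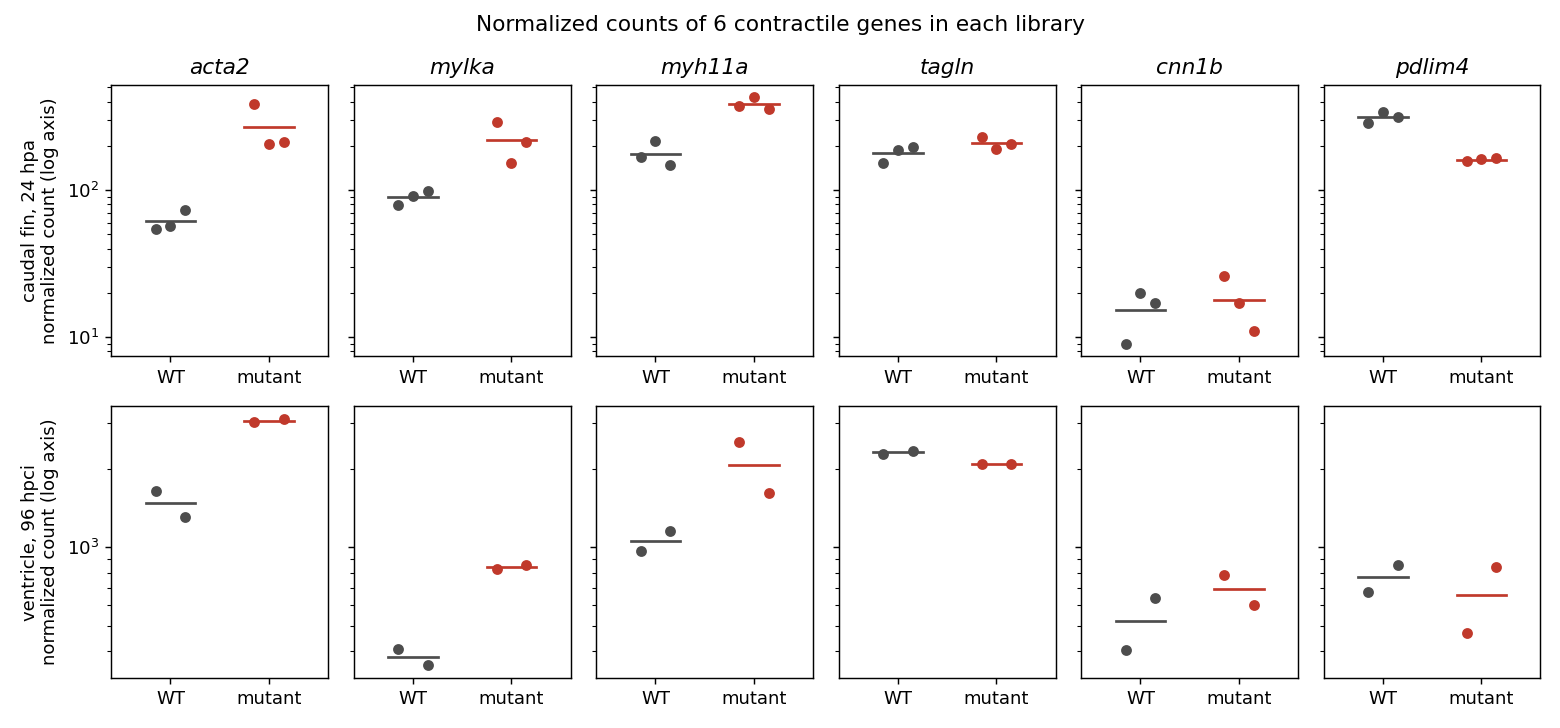
Normalized counts (log axis) of the 6 contractile genes in each library, caudal fins at 24 hpa in the upper row and ventricles at 96 hpci in the lower row, with 1 point per library and a line at the group mean. In both tissues all mutant points of acta2, mylka and myh11a lie above all wild-type points, while pdlim4 is lower in every mutant fin (157 to 165 against 284 to 341) but overlaps in ventricles.

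In cryoinjured ventricles the same 3 genes had higher values in mutants, with folds of 1.92 to 2.22, but no gene of any kind passed the adjusted test. The number of genes called by limma with Benjamini-Hochberg adjustment was 0 of 17411 (0%), with 1173 (6.74%) at an unadjusted p-value under 0.05. Of the 6 genes 3 had such an unadjusted p-value. The genotypes did not overlap in 4 of the 6, 3 higher and 1 lower in mutants, where over all tested genes 35.3% lay apart, 18.2% as higher and 17.1% as lower. With 2 libraries against 2, an exact permutation test of 1 gene cannot go below 0.333.

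The ventricle values of acta2 were 1642 and 1302 in wild type against 3014 and 3108 in mutants. The mutant libraries agreed closely and lay above both wild-type libraries. The log2 fold change was 1.07 (SE 0.20, limma unadjusted p = 0.00177, adjusted p = 0.358). For mylka the values were 408 and 353 in wild type against 827 and 859 in mutants. This gave the largest log2 fold change of the 6 in ventricles, 1.15 (SE 0.18, limma unadjusted p = 0.000646, adjusted p = 0.254).

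For myh11a the ventricle values were 965 and 1151 in wild type against 2530 and 1620 in mutants, a log2 fold change of 0.94 (SE 0.26, limma unadjusted p = 0.0114, adjusted p = 0.589). The mutant libraries lay further from each other than the wild-type libraries did, with replicate 1 the higher. Without mutant replicate 1, the library with few cardiomyocyte transcripts, the log2 fold changes were 1.09 for acta2, 1.18 for mylka and 0.62 for myh11a. In the other mutant library the cardiomyocyte markers summed to 871022, inside the wild-type range. There acta2 was 3108, mylka 859 and myh11a 1620, against 3014, 827 and 2530 in replicate 1. The part of cardiomyocyte content in these values was not tested.

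The remaining genes did not follow. Ventricle tagln was 2280 and 2338 in wild type against 2094 and 2082 in mutants. The mutant values were lower without overlap, by a log2 difference of -0.15 with an interval of -0.57 to 0.28 (limma adjusted p = 0.916). Ventricle cnn1b overlapped, at 403 and 638 against 783 and 599, with an interval of -0.24 to 1.11. Its log2 fold change of 0.43 became 0.24 without mutant replicate 1, and that of tagln stayed at -0.15. Ventricle pdlim4 overlapped as well, at 675 and 858 against 470 and 841, and its difference of -0.28 became 0.14 without mutant replicate 1.

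In ventricles the 6 listed entries for skeletal and heart muscle alpha-actins summed to between 240404 and 420016 normalized counts per library, led by the heart actin actc1a. The actc1a entry on chromosome 20 held 220378 and 205543 in wild type against 118022 and 218703 in mutants. The other entries overlapped between genotypes as well, with log2 fold changes from -0.40 for the second actc1a entry to 0.40 for actc1b. Whether reads were shared between acta2 and these copies was not tested.

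**Figure D2:**
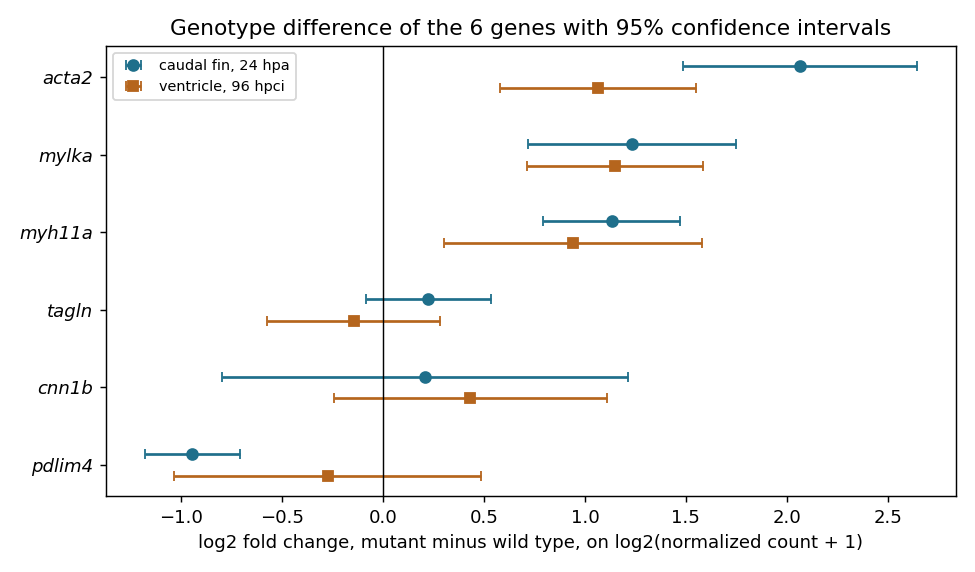
Log2 fold change of the 6 contractile genes, mutant minus wild type, after adding 1 (x axis), with 95% confidence intervals from limma, circles for fins and squares for ventricles. The intervals of acta2, mylka and myh11a lie above 0 in both tissues before adjustment, that of pdlim4 lies under 0 in fins, and those of tagln and cnn1b include 0 in both.

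Whether the genotype difference itself differed between fins and ventricles was tested by limma over all 10 libraries, on 14520 genes that passed the filter in both tissues. Of these, 14.1% passed (adjusted p-value under 0.05), and 0 of the 6 contractile genes did, with 2 at an unadjusted p-value under 0.05, a level reached by 33.3% of all these genes. For acta2 the difference in fins exceeded that in ventricles by 1.001 on the log2 scale, with an interval of 0.21 to 1.797 (limma adjusted p = 0.0849). For mylka it was 0.08, with an interval of -0.62 to 0.79, so a difference of 1 log2 unit lay outside it. For myh11a it was 0.19 (interval -0.46 to 0.84), for tagln 0.37 (-0.05 to 0.78), for cnn1b -0.22 (-1.48 to 1.03) and for pdlim4 -0.67 (-1.34 to -0.000397). Without mutant ventricle replicate 1, a fit chosen after seeing the data, the pdlim4 contrast was -1.09 and passed (limma adjusted p = 0.0136), so the count was then 1 of 6. Without the other mutant ventricle library it was -0.25 (limma adjusted p = 0.391). Tissue, time and kind of injury change together between these groups and cannot be told apart.

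A ratio of genes within 1 library does not depend on how libraries were scaled. As the reference served tagln, a smooth muscle gene that differed little by genotype in these same libraries (log2 0.22 in fins, -0.15 in ventricles). The ratio differences therefore largely restate the fold changes above and are no separate evidence. They do not measure a rise relative to smooth muscle content. The ratio of acta2 to tagln was 0.36, 0.30 and 0.37 in wild-type fins and 1.68, 1.095 and 1.04 in mutant fins. In ventricles it was 0.72 and 0.56 in wild type against 1.44 and 1.49 in mutants. The ratio was under 1 in every wild-type library and over 1 in every mutant library of both tissues. It was not corrected for the lengths of the transcripts. These cancel between libraries but not in a comparison with 1, so a ratio of 1 is no natural boundary.

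The ratio of mylka to tagln was 0.484 to 0.520 in wild-type fins and 0.810 to 1.25 in mutant fins, and 0.151 to 0.179 against 0.395 to 0.413 in ventricles. The ratio of myh11a to tagln was 0.756 to 1.14 against 1.62 to 2.27 in fins, and 0.423 to 0.492 against 0.778 to 1.21 in ventricles. In log2 terms the ratio differences of these 3 genes were 0.91 to 1.86 in fins and 1.09 to 1.30 in ventricles. For pdlim4 the ratio went from 1.59 to 1.87 in wild-type fins down to 0.680 to 0.857 in mutant fins, and it overlapped in ventricles. For acta2, mylka and myh11a two-sided exact permutation tests gave p = 0.1 in fins and 0.333 in ventricles, the smallest that these group sizes allow. For pdlim4 in fins the two-sided exact permutation test gave p = 0.1 too. The ratio of cnn1b to tagln overlapped in fins. In ventricles it lay apart as well, at 0.177 to 0.273 against 0.288 to 0.374 (two-sided exact permutation test, p = 0.333). There, on the deposited values, tagln was itself lower in mutants without overlap (log2 difference -0.145). This moves every ventricle ratio upward in mutants relative to the fold changes on those values. After the scaling to shared genes described below, tagln overlapped in ventricles, at 221.5 and 239.5 in wild type against 232 and 203.9 in mutants.

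**Figure D3:**
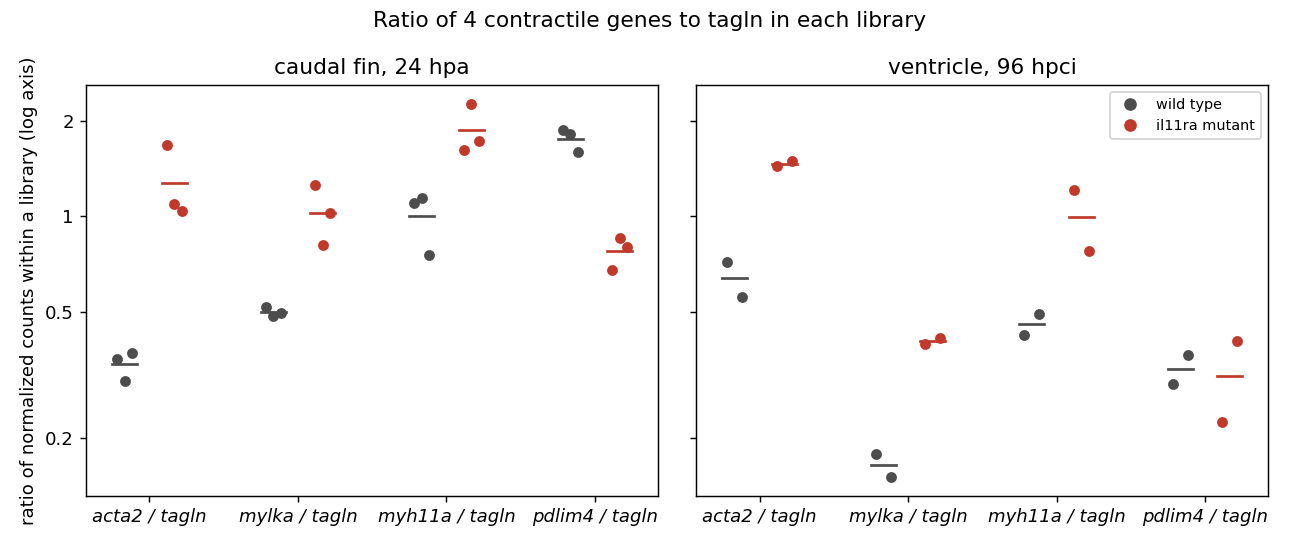
Ratio of the normalized counts of acta2, mylka, myh11a and pdlim4 to that of tagln within each library (log axis), fins on the left and ventricles on the right, with 1 point per library and a line at the group mean. The acta2 ratio lies at 0.30 to 0.72 in the wild-type libraries of both tissues and at 1.04 to 1.68 in the mutant ones.

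To order the levels over tissues, each library was scaled to a sum of 1000000 over the nuclear genes that both tables list, as a description, since each table was normalized on its own. For acta2 the order was wild-type fin (16.1 ± 2.83, SD, n = 3), mutant fin (69.1 ± 24.4, n = 3), wild-type ventricle (146 ± 18.5, n = 2) and mutant ventricle (319 ± 20.9, n = 2), with no overlap between neighbours. On this scale for mylka, mutant fins (55.9 ± 16.3, n = 3) stood above wild-type ventricles (37.9 ± 2.46, n = 2), with wild-type fins lowest (23.5 ± 2.87, n = 3) and mutant ventricles highest (87.9 ± 5.30, n = 2). For myh11a, mutant fins (99.7 ± 10.9, n = 3) overlapped wild-type ventricles (106 ± 17.1, n = 2), with wild-type fins at 46.5 ± 9.43 (n = 3) and mutant ventricles at 220 ± 86.0 (n = 2).

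The other genes were ordered by tissue or not at all. In tagln both ventricle groups (218 ± 19.9 in mutants and 231 ± 12.7 in wild type, n = 2 each) stood above both fin groups (47.0 ± 6.98 and 53.8 ± 4.27 in wild type and mutants, n = 3 each), with overlap between genotypes. In cnn1b the ventricles held 52.3 ± 18.5 in wild type and 72.7 ± 19.9 in mutants (n = 2 each), and the fins 4.04 ± 1.55 and 4.62 ± 1.84 (n = 3 each). In pdlim4 only mutant fins (41.7 ± 1.90, n = 3) stood clear of the other 3 groups, which overlapped and had means of 67.2 to 82.1. Several of these orders rested on the scale, since on the deposited values all 6 genes moved up in ventricles relative to fins. There wild-type ventricles were above wild-type fins in pdlim4, and for mylka wild-type ventricles (353 and 408) were above mutant fins (153 to 289). The overlap of mutant fins (356 to 428) with wild-type ventricles (965 and 1151) in myh11a was lost as well.

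How alike the genes were from library to library was described by Pearson's r over the 10 libraries, on log2 values minus the mean of the tissue. The libraries share the difference of genotype, so that r mostly repeats it, and no test is given. It was 0.96 between acta2 and mylka, 0.84 between acta2 and myh11a and 0.83 between mylka and myh11a. It was -0.84 between acta2 and pdlim4, and 0.28 to 0.55 between tagln and the acta2, mylka and myh11a trio.

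Among the 14514 other genes tested in both tissues, 28 had r of at least 0.9 with the mean of the 6. The 5 most alike were raf1b (0.95), nrbp2a (0.95), lmod1b (0.94), rin2 (0.94) and irf2bp2a (0.93). They were picked by r, which mostly repeats the genotype difference, so a difference between genotypes in them follows from the choice. Their p-values are given as a description. The mean of the 6 also holds pdlim4, which ran opposite to acta2 (r = -0.84). The leiomodin gene lmod1b, whose product nucleates actin filaments in smooth muscle, stood at 12, 21 and 19 in wild-type fins and 44, 26 and 25 in mutant fins (limma adjusted p = 0.0962). Its ventricle values were 132 and 119 against 298 and 194, so its genotypes were apart in both tissues without passing the test in either. The kinase gene raf1b, a member of the MAPK cascade, held 254, 305 and 296 against 424, 396 and 391 in fins (log2 fold change 0.50, limma adjusted p = 0.00677).

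Few paralogs of the 6 genes rose in fins. Of 33 paralog symbols, 27 were listed and 19 tested in fins. Of these, 1 was called higher and 5 lower (19.6% and 17% of all tested genes), with a median log2 fold change of 0.08. The one that rose was pdlim5a, another PDZ and LIM domain gene, from 23, 20 and 15 to 90, 44 and 55 (log2 fold change 1.61, limma adjusted p = 0.00722). Those that fell were pdlim7 (-1.61), pdlim3b (-0.82), tagln3b (-0.77) and the nonmuscle myosin heavy chains myh14 (-0.64) and myh10 (-0.57). The cytoplasmic actin genes actb1 (1290 to 1690 in wild type against 1452 to 1882 in mutants) and actb2 overlapped between genotypes. Their values were alike in fins, at 1690 and 1689 in wild-type replicate 1, but 22799 and 67986 in wild-type ventricle replicate 1. Whether the fin table holds down such abundant genes was not tested, so their overlap shows little. The nearest copies of myh11a and tagln overlapped too, with myh11b at 10, 49 and 17 against 27, 47 and 133, and tagln2 at 622 to 805 against 644 to 916.

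Other contractile, cytoskeletal and adhesion genes of smooth muscle went both ways in fins. Of 39 symbols 28 were tested, with 3 called higher and 8 lower (19.6% and 17% of all tested genes). The median log2 fold change was -0.12. The rises were fhl1a (1.43), a LIM protein of muscle, the leiomodin gene lmod1a (1.13) and the tropomyosin gene tpm1 (0.53). The 5 largest falls were the kindlin gene fermt2 (-3.16), the intermediate filament gene synm (-1.15), the smoothelin gene smtnb (-0.81), the parvin gene parvaa (-0.80) and the collagen-binding integrin gene itga1 (-0.65). Lower fermt2 rested on few reads, with 19, 31 and 19 in wild type against 1, 2 and 2 in mutants. The light chain genes myl9a and myl9b, whose products are the substrate of the kinase encoded by mylka, had log2 fold changes of 0.26 and 0.14 and did not pass the test. The number called in this list fell from 11 to 4 without wild-type replicate 2 and to 7 without wild-type replicate 3.

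Smooth muscle genes are switched on by serum response factor with its coactivators of the myocardin family. Of 24 regulator symbols 16 genes were tested in fins, 2 called higher and 5 lower (19.6% and 17% of all tested genes). The median log2 fold change was -0.12. The serum response factor gene srfa fell from 109, 156 and 128 to 50, 60 and 67 (log2 fold change -1.13, limma adjusted p = 0.00377). Among the other falls were the TEAD factor genes tead3b (-1.36) and tead3a (-0.88) and the coactivator gene mrtfba (-0.87). A second coactivator gene, mrtfab, rose by 0.49 (689 to 871 in wild type against 940 to 1229 in mutants), and the forkhead gene foxc1b rose by 0.65. The number called in this list fell from 7 to 4 without wild-type replicate 2 and likewise without mutant replicate 3.

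In ventricles the count called was 0 in each of these lists. Without overlap between genotypes, 14 of 32 tested contractile genes were higher and 3 lower in mutants (18.2% and 17.1% of all tested genes), and the median log2 fold change of 0.34 stood beside 0.01 over all tested genes. Without mutant replicate 1 that median was 0.15, beside 0.01. Of 29 paralogs 1 was higher and 3 lower with a median of -0.01, and of 18 regulators 6 were higher and 2 lower with a median of 0.10. Both leiomodin genes were among the higher ones, with lmod1a at 9 and 5 against 22 and 18. Chosen after their values were seen, the integrin gene itga8 held 13 and 14 in wild type against 51 and 83 in mutants, and the myosin light chain kinase paralog mylk4b held 1252 and 1194 against 166 and 341, the opposite direction to mylka. The srfa values were 72 and 81 against 128 and 93, a log2 difference of 0.51 (limma adjusted p = 0.782) where the fin value was negative.

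**Figure D4:**
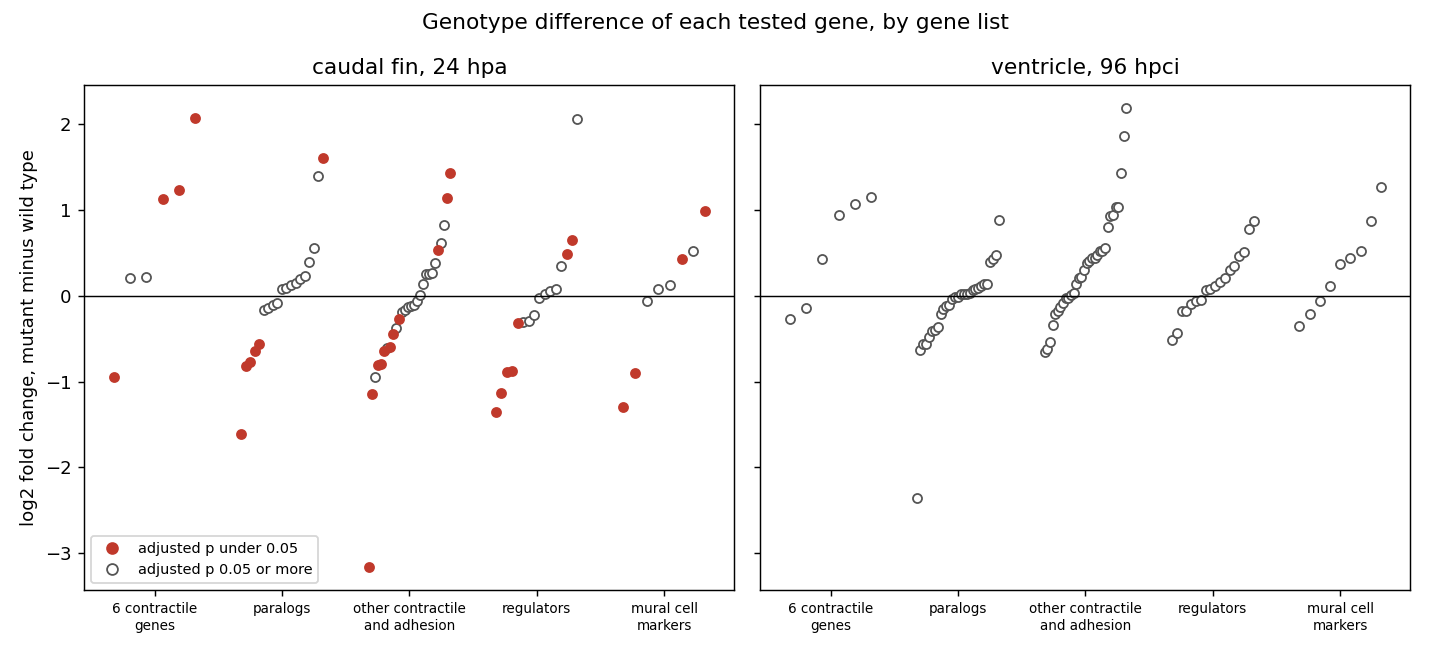
Log2 fold change, mutant minus wild type (y axis), of every tested gene of the 6 contractile genes, their paralogs, other contractile and adhesion genes, their regulators and mural cell markers, fins on the left and ventricles on the right. Filled points passed an adjusted p-value under 0.05. Among other contractile genes these are 3 higher and 8 lower in fins (19.6% and 17% of all tested genes) and 0 in ventricles.

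Some markers of other cells differed by genotype in the same libraries. Over all tested genes in fins, 19.6% were called higher and 17% lower. A list count near these shares, as for mural markers, is only a description. Of 8 mural cell markers tested in fins, 2 were called higher and 2 lower, and their summed level was 2390 to 2672 in wild type against 2754 to 3324 in mutants. Named after their values were seen, rgs5a rose (204 to 250 in wild type against 384 to 605 in mutants), as did pdgfrb (471 to 589 against 639 to 733), while the channel subunit gene abcc9 (-1.29) and the proteoglycan gene cspg4 (-0.90) fell. Of 7 leukocyte markers tested in fins 6 were called higher and 0 lower, with a sum of 2179 to 2768 in wild type against 4292 to 5171 in mutants. Of 8 fibroblast markers 5 were called lower, with a sum of 19108 to 22833 against 14337 to 15396, and of 7 endothelial markers 3 were called higher. The skeletal muscle markers summed to 66 to 88 in wild-type fins and 72 to 158 in mutant fins, and 2 of 7 listed reached a mean of 10. Of those 2, 1 was called higher and 0 lower. It was ckma, named after its values were seen, at 1, 2 and 0 in wild type against 89, 52 and 14 in mutants. Cardiomyocyte markers summed to 75 to 171 against 16 to 37 in fins. Of 2 tested, 1 was called lower and 0 higher. It was tnnt2a, named after its values were seen, at 61, 74 and 57 against 0, 6 and 5. Of 6 osteoblast markers tested 4 were called lower, of 7 keratinocyte markers 1 was called higher, and 0 of 7 erythrocyte and 0 of 2 epicardial markers were called.

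In ventricles the mural sum was 4645 to 4966 in wild type against 4379 and 6502 in the mutant libraries. The lower of those was mutant replicate 1. The sum was led by abcc9, at 1972 and 2164 in wild type against 1088 and 2412 in mutant replicates 1 and 2. Mutant replicate 1 was also lowest in the cardiomyocyte sum (486874). Whether abcc9 RNA came from mural cells here was not tested, so this sum need not be one of mural cells alone. Of 9 mural markers 2 were higher without overlap and 0 lower, and these were, chosen after their values were seen, notch3 (956 and 784 against 1504 and 1677) and kcne4. Over all tested genes in ventricles, 18.2% were higher and 17.1% lower without overlap. Leukocyte markers summed to 6519 to 6687 in wild type and to 10674 and 6328 in the mutants, with replicate 1 the higher. Endothelial markers summed to 20256 to 24059 against 16843 to 16849 and epicardial markers to 4747 to 6537 against 2952 to 3958, both sums lower in mutants without overlap. In wild type the endothelial sum was led by vwf, at 6504 and 8891 against 3452 and 4206 in mutants. Of 8 endothelial markers 5 were lower and 0 higher without overlap, and the others overlapped. The epicardial sum was led by aldh1a2, at 3874 and 5549 in wild type against 3096 and 1652 in mutants. The paper reports aldh1a2 in endocardial as well as epicardial cells, so this sum is not one of epicardial cells alone. Single epicardial markers went both ways, with 3 of 5 lower and 2 higher without overlap. Erythrocyte markers were higher without overlap, at 73393 to 77673 against 86850 to 99112, and the fibroblast sum overlapped, at 92894 to 112556 against 92250 to 107670. That sum was led by fn1b, which was lower in mutants, while 5 of 9 fibroblast markers were higher without overlap and the median log2 fold change of the list was 0.54. The 5 were col1a1a, col1a2, col5a1, postnb and tcf21, named after their values were seen. The part of any of these markers in the values of the 6 genes was not tested.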

How the data were processed

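The authors prepared stranded mRNA libraries and sequenced single-end reads. Per the submitters' processing notes, reads were trimmed with Trimmomatic 0.39, aligned to GRCz11 with STAR 2.7.3a, counted with featureCounts 1.6.5 and scaled with DESeq2 1.26. The values as deposited are a normalized signal. The authors scaled counts by size factors set within each tissue and rounded them. Whole reads were not recovered, so no count model was fitted. The worth of 1 read (0.802 to 1.34 in fins, 0.836 to 1.03 in ventricles) was estimated from gaps among low values, and 20 of 20 simulated factors came back within 1 percent.

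Symbols and coordinates are those of the tables, of which 985 of 20684 shared genes carry another symbol in the other table. The entry called tagln3b in the fin table is abhd10b in the ventricle table. Genes with a mean of at least 10 were fitted with limma 3.58.1 in R 4.3.3 on log2 of the normalized count plus 1 (empirical Bayes with trend, two-sided, Benjamini-Hochberg, threshold 0.05), each tissue alone. The difference between tissues was a contrast over all 10 libraries. On simulated fins limma called 96% of genes changed by 4-fold and 95% of those changed by 2-fold among 16741 genes, with 9 false calls. On simulated ventricles these were 89% and 26% among 17411 genes, with 2 false calls. Every simulated gene had the same spread between libraries, and 200 genes were changed. Real genes differ in spread, so these shares need not hold for them. In the real ventricles il11ra had a log2 fold change of -2.23 and was not called (limma adjusted p = 0.306). Confidence intervals are at 95%. Python 3.11.15, pandas 2.3.3 and matplotlib 3.10.9 were used for ratios and figures.

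The 6 genes and all lists were chosen with earlier results of these data known. The rule for naming covered the 6 genes, at most the 5 largest rises and 5 largest falls past the threshold per list and tissue, and the nearest paralogs. It also covered the 5 genes most alike, the highest-valued marker of a list, and il11ra. Outside this rule stand myl9a, myl9b and the genes given as named or chosen after their values were seen. Replicate numbers are in the labels, and nothing says that equal numbers share a clutch or a day. As alternatives the pseudocount was set to 0.1 or 10, the minimum mean to 50 or dropped, and the scaling to upper-quartile or TMM factors, beside other moderation, a replicate block and each library left out. Fin libraries come from single fish and ventricle libraries from pools, and p-values measure the spread between them. The authors' own comparisons were not used. Promoter and protein sequences were not used here.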

Additional observations from a re-analysis of the deposited data

Results flagged for a closer look

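Of 27 named genes tested in both tissues, 7 had a genotype difference in fins that differed from that in ventricles (limma contrast over 10 libraries, Benjamini-Hochberg over 14520 genes), and with all libraries kept none of the 6 contractile genes was among them. Over all genes 14.1% passed. Apart from the 6 genes, these genes were named because they were among the largest called differences in fins, which by itself favours a difference from ventricles, so the count is a description. Each value is the log2 fold change in fins minus that in ventricles. The kindlin gene fermt2 had -2.99 (adjusted p = 0.00531 from limma), from -3.16 in fins and -0.17 in ventricles. The serum response factor gene srfa had -1.64 (adjusted p = 0.0114 from limma), from -1.13 and 0.51. The TEAD gene tead3b had -1.26 (adjusted p = 0.0233 from limma) and the parvin gene parvaa -1.10 (adjusted p = 0.0202 from limma). The LIM gene fhl1a had 1.56 (adjusted p = 0.0469 from limma), from 1.43 and -0.13, and pdlim3b had -0.88 (adjusted p = 0.0450 from limma). The entry called tagln3b in the fin table and abhd10b in the ventricle table had -1.0 (adjusted p = 0.0263 from limma), and which of these genes its reads belong to was not tested. Tissue, time and injury differ together between the groups.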

How the results depend on the processing

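The 4 calls in fins held in all 15 alternative fits. The log2 fold change ranged from 1.78 to 2.22 for acta2, 1.01 to 1.46 for mylka, 1.02 to 1.28 for myh11a and -1.01 to -0.88 for pdlim4 with 1 library left out. In fins 6132 genes were called with all libraries, and the total called was 4180 to 5317 with 1 library left out. How many genes were called in both fits was not counted. The number lower in mutants fell from 2853 to 1656 without wild-type replicate 2 and to 1791 without wild-type replicate 3. In ventricles 0 genes were called in all 14 alternative fits. With 1 library left out, cnn1b in fins ranged from -0.11 to 0.50 and pdlim4 in ventricles from -0.69 to 0.14. Differences that turned were cnn1b in fins without wild-type replicate 1 (-0.11) or mutant replicate 1 (-0.08), and pdlim4 in ventricles without mutant replicate 1 (0.14). The pdlim4 level of wild-type ventricles over fins was -0.10 (log2) after scaling to the shared genes and 1.29 on the deposited values, and the other 5 ratios moved the same way. The cause was not tested. Between libraries of equal replicate number the correlations were -0.08 to 0.09 in fins and -0.19 in ventricles, after subtracting genotype means. With 2 ventricle libraries per genotype the value for crossed numbers is 0.19 by construction, so it cannot decide on pairing there. With a replicate block 5703 genes were called in fins and 0 in ventricles, and it changed no call among the 6 genes. With the ventricle numbers crossed, chosen after seeing the data, 0 were called. With 26% of 2-fold changes found in simulated ventricles, a missed test there shows little. In fins cnn1b rests on an estimated 8 to 25 reads per library. In the contrast between tissues, with 1 library left out in fits chosen after seeing the data, 0 to 1 of the 6 genes passed, the 1 being pdlim4 without mutant ventricle replicate 1. The contrasts then ranged from 0.71 to 1.17 for acta2, 0.26 to 0.44 for tagln, -1.09 to -0.25 for pdlim4, and over both signs for mylka (-0.14 to 0.31), myh11a (-0.13 to 0.51) and cnn1b (-0.56 to 0.11).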
